A study of Homo sapiens with 4 samples.

Results

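Blastoids are blastocyst models made by aggregating naive human embryonic stem (nES) cells, and most of their cells resemble the epiblast (Epi). Within these Epi-like cells, the cells with the most RNA from 7 genes of the amino acid and stress response run by the transcription factor ATF4 are described here. They were chosen by their UMI counts for DDIT4, CHAC1, TRIB3, ASNS, DDIT3, SESN2 and SLC7A11 (a UMI is a molecular tag that counts each captured mRNA once). The score of a cell is the sum of these 7 genes in CPM (UMIs scaled to a total of 1000000), and the top 10% of Epi-like cells of each sequencing run were taken. This gave 1045 high-score cells of 10445 Epi-like cells, from 13017 cells kept of 24564 barcodes.

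The cells came from the H9 (WA09) line, a human embryonic stem cell line, and each library pooled cultures that carried different hashtag antibodies. Blastoids were collected at 120 h after induction with 4 mM dm-αKG (dimethyl 2-oxoglutarate, a cell-permeable form of α-ketoglutarate) or 0 mM, added for the initial 40 h only. Run 2 and run 3 were independent experiments. Each held both doses, which gives 4 blastoid arms with 1 culture each. Run 2 also held 40 h aggregates at both doses. Single-cavity blastoids were picked by hand and dissociated, and the line is a single donor genotype, so the runs are not separate donors.

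ATF4 is translated when the kinases PERK, GCN2, PKR or HRI phosphorylate the initiation factor eIF2, in response to unfolded protein in the endoplasmic reticulum, missing amino acids, double-stranded RNA or haem and mitochondrial stress. It then induces amino acid transporters, enzymes of serine, asparagine and one-carbon synthesis, tRNA synthetases and brakes on mTORC1 such as DDIT4 and SESN2. If the stress lasts, DDIT3 (CHOP), TRIB3 and CHAC1 are induced as well, and CHAC1 breaks down glutathione.

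The cells kept had a median of 28857.5 to 30128.5 UMIs in the blastoids of run 2 and 15537 to 15717.5 in those of run 3, so a score of run 3 rests on fewer molecules. The median high-score cell held 27 UMIs of the 7 genes in run 2 and 12 in run 3, against 8 and 3 in the other Epi-like cells, and the lowest high-score cell of each run held 7 and 3. Of the barcodes with a single hashtag in run 2, 77.7% of the 4 mM and 48.0% of the 0 mM blastoid barcodes passed the depth and mitochondrial filters. In run 3 the shares were 85.4% and 76.7%. Between the runs 28 barcodes were shared, 3 of them among Epi-like cells and 0 among high-score cells.

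The score had no gap at its cutoff, so the high-score cells are the upper range of a continuous measure and not a separate type. The cutoff was 711 CPM in run 2, where the next cell outside had 709. In run 3 it was 579.1, and the next cell outside had 579.0. In run 2, 29 cells lay within 10% above the cutoff and 44 within 10% below it. In run 3 these counts were 222 and 330. The median score was 876 CPM in the high-score cells of run 2 and 278 in the other cells, and 723 and 212 in run 3. At the cutoff a cell held 21 UMIs of the 7 genes in run 2 and 9 in run 3, and when cells were thinned to equal depth before scoring, 63.5% of the high-score cells of run 2 and 53.4% of those of run 3 were chosen again.

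High-score cells made up a larger share of Epi-like cells at 4 mM than at 0 mM in both runs. In run 2 they were 131 of 1006 cells at 4 mM (13.0%, exact 95% interval 11.0 to 15.3%) and 6 of 360 at 0 mM (1.67%, 0.614 to 3.59%). In run 3 they were 709 of 5101 cells at 4 mM (13.9%, 13.0 to 14.9%) and 199 of 3978 at 0 mM (5.00%, 4.35 to 5.73%). The intervals are Clopper-Pearson and cover counting error only. The share at 4 mM divided by that at 0 mM was 7.81 in run 2 (95% interval 3.48 to 17.6) and 2.78 in run 3 (2.39 to 3.23). Over the 4 arms the mean share differed by 10.1 percentage points between doses, with an exact two-sided permutation p of 0.333, the smallest that 2 arms per dose allow.

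The median score was also higher at 4 mM. The median score over all Epi-like cells was 340 CPM at 4 mM and 212 at 0 mM in run 2, and 285 at 4 mM and 190 at 0 mM in run 3. The share was higher at 4 mM in each of 4 bins of sequencing depth in both runs. In run 3 it ran from 13.2 to 14.7% at 4 mM and from 4.63 to 5.89% at 0 mM over the bins. The ratio was smaller when DDIT4 was left out of the score and when cells were thinned. Thinning leaves fewer molecules per cell to score, and the part of that in the smaller ratio was not tested. Scored without DDIT4, the shares were 11.8% at 4 mM and 5.00% at 0 mM in run 2, and 12.1% and 7.32% in run 3. With every cell thinned to equal depth first, they were 12.1% and 4.17% in run 2, and 13.4% and 5.63% in run 3.

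**Figure D1:**
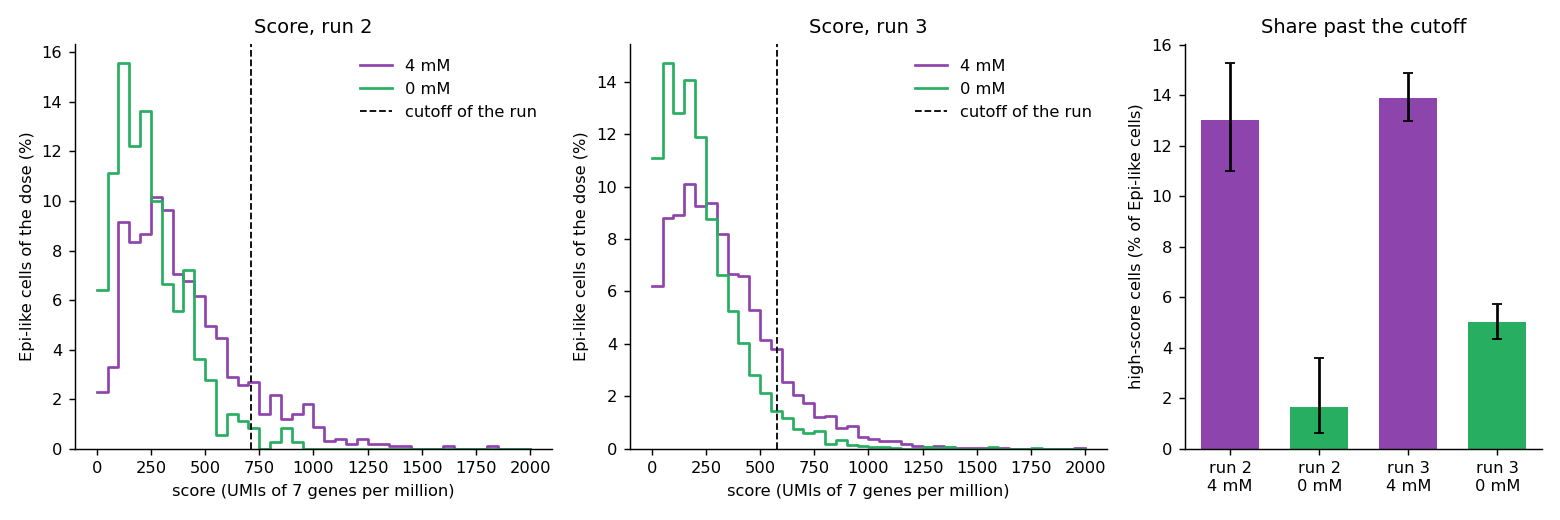
Left and middle, the score of Epi-like cells (7 genes, CPM) in run 2 and run 3 as the percentage of cells of each dose, with a dashed line at the cutoff of the run. Right, the percentage of Epi-like cells past the cutoff in each arm with exact 95% intervals: 13.0 and 13.9% at 4 mM, against 1.67 and 5.00% at 0 mM.

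The 7 genes that chose the cells are given as a description with no test. DDIT4 (chromosome 10, 72273919 to 72276036, plus strand), which inhibits mTORC1, carried 36.7 to 52.2% of the 7-gene UMIs of high-score cells. Its level in the 4 mM and 0 mM arms of run 2 and run 3 was 480, 373, 360 and 271 CPM in high-score cells, against 143, 87.1, 109 and 67.6 in the other Epi-like cells. CHAC1 (chromosome 15, 40952962 to 40956512, plus strand), the glutathione-degrading enzyme, had 66.7, 65.9, 85.1 and 42.5 CPM, against 21.7, 16.4, 21.9 and 13.3.

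TRIB3 (chromosome 20, 362835 to 397559, plus strand), a pseudokinase that feeds back on ATF4, had, in the same order of arms, 103, 110, 86.1 and 161 CPM in high-score cells, against 44.5, 35.6, 29.7 and 34.9 in the others. DDIT3 (chromosome 12, 57516588 to 57521737, minus strand), the factor CHOP, had 96.3, 126, 75.8 and 98.5, against 42.5, 44.6, 33.2 and 31.1. Since all cells passed a cutoff on the sum of the 7 genes, less of one score gene goes with more of the others by the rule itself, and nothing is read from these levels by dose. DDIT4 gave 46.6% of the 7-gene UMIs in the 4 mM high-score cells of run 3 and 36.7% in those at 0 mM, and TRIB3 gave 11.2% and 21.8%.

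SESN2 (chromosome 1, 28259518 to 28282491, plus strand), a leucine sensor that restrains mTORC1, had 84.9, 54.9, 81.2 and 87.9 CPM in high-score cells, against 31.8, 27.7, 34.7 and 31.2. SLC7A11 (chromosome 4, 138164097 to 138242349, minus strand), the cystine importer, had 77.3, 104, 74.4 and 67.3, against 39.2, 29.4, 34.3 and 26.0. ASNS (chromosome 7, 97851677 to 97872542, minus strand), asparagine synthetase, was the scarcest of the 7 in these 3′ counts, with 10.9, 16.5, 9.43 and 9.07 against 2.87, 2.13, 3.60 and 2.58, and gave under 2% of the score. The high-score values of each gene lay above all 4 values of the other cells, which the rule fixes in part.

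**Figure D2:**
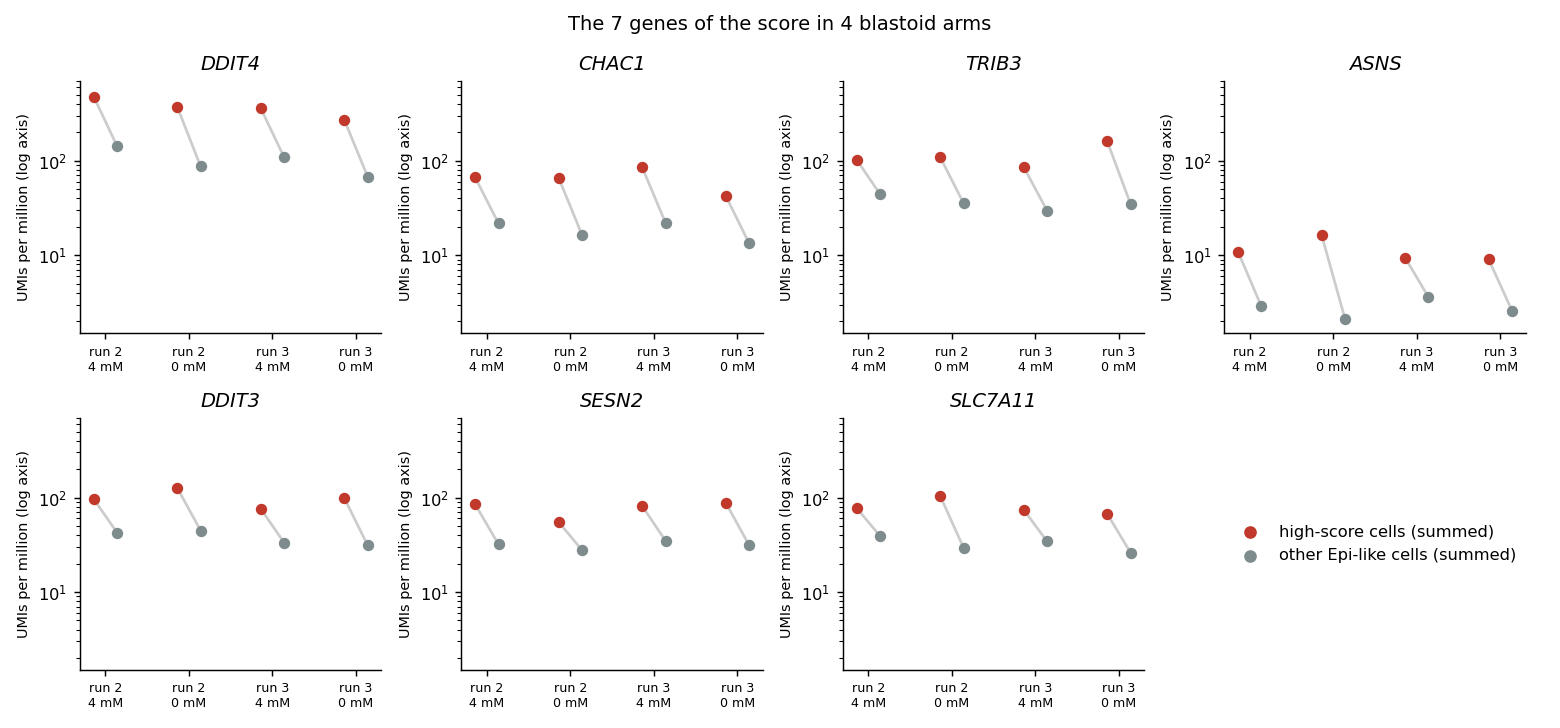
Level of each of the 7 score genes (CPM of the summed cells, log axis) in the 4 blastoid arms, high-score cells in red on the left of each pair and other Epi-like cells in grey. DDIT4 is the highest gene and ASNS the lowest, and TRIB3 is highest in the 0 mM arm of run 3 at 161.

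To see whether the 7 genes move together, each was left out in turn and cells were chosen again by the other 6. The gene left out was then tested in edgeR on the UMI sums of the 4 arms. All 7 were higher in the cells the other 6 picked. The 7 genes were chosen with earlier results of these data known. Both classes of an arm share a culture and a library, so the p-values measure little beyond counting error. CHAC1 had 61.9, 55.3, 62.3 and 29.3 CPM in cells chosen without it, against 22.6, 16.4, 25.7 and 13.9, a log2 difference of 1.30 ± 0.073 (SE, adjusted p = 3.95e-67). ASNS differed by 1.17 ± 0.18 (adjusted p = 1.30e-08) and DDIT4 by 0.99 ± 0.042 (adjusted p = 2.88e-118). TRIB3, SESN2 and DDIT3 differed by 0.87, 0.87 and 0.78. SLC7A11 differed least, by 0.52 ± 0.070 (adjusted p = 1.29e-10), and is also a target of NRF2, the factor of the oxidative stress response.

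In single cells the coupling was loose. Over the Epi-like cells of an arm, Pearson's r between the log-scaled levels of DDIT4 and CHAC1 was 0.41 at 4 mM and 0.27 at 0 mM in run 2 (1006 and 360 cells), and 0.25 and 0.17 in run 3 (5101 and 3978 cells). These are descriptions over cells of 1 culture that share a library and are sparse. The median high-score cell had UMIs from 6 to 6.5 of the 7 genes in run 2 and from 4 in run 3. At least 4 of the 7 genes were detected in 77.2% of the 4 mM and 74.4% of the 0 mM high-score cells of run 3, against 25.5% and 19.7% of the other cells.

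The 8 nucleotide motif TGATGNAA, the core of the site that ATF4 and C/EBP factors bind as a pair, was searched on both strands in the 250 bases before each listed start (RefSeq, GRCh38.p14). A gene was counted once if any of its listed promoters held the motif. It was found for 2 of the 6 score genes with a promoter in the table, CHAC1 and ASNS. Among other genes with a promoter it was found for 18 of 161 (11.2%) higher in high-score cells, 2 of 86 (2.33%) lower in them, and 233 of 10220 (2.28%) of all genes tested. Counted per promoter and not per gene, 3.14% of the 35116 promoters of the table held it. The sites are shown for the score genes and for the genes higher in high-score cells that are taken up below or drawn in the plot of ATF4 targets, with the motif in capitals and read 5′ to 3′ on the strand of the gene, where TTNCATCA is the motif on the opposite strand. A match is a stretch of letters and not a measured binding site.
CHAC1, chr15:40953251-40953280: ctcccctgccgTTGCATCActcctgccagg
ASNS, chr7:97872458-97872487: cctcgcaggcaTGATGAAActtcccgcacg
HERPUD1, chr16:56931955-56931984: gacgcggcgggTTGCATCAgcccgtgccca
CEBPG, chr19:33374060-33374089: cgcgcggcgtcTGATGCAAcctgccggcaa
JDP2, chr14:75427995-75428021: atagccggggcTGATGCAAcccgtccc
SLC1A5, chr19:46784893-46784922: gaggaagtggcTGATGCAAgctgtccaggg
ATF3, chr1:212565205-212565234: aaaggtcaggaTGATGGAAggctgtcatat
PPP1R15B, chr1:204412026-204412055: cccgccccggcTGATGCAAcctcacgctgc
IARS, chr9:92293698-92293721: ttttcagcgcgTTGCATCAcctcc
GARS, chr7:30594834-30594863: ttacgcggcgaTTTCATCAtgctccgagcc
HRK, chr12:116881498-116881527: cgggggccggaTGATGTAAcccccctcccc
S100P, chr4:6693744-6693773: acaacgatgcaTTTCATCAgaactgagcac

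Outside the 7 genes, high-score cells were compared with the other Epi-like cells of the same arm, over 13166 genes. The edgeR quasi-likelihood test called 190 genes higher (1.44% of those tested) and 122 lower (0.927%) at an adjusted p under 0.05, and 129 and 93 of them had the same sign in all 4 arms. The differences were small, with a median of 0.30 (log2) among the genes called higher and 0.26 among those called lower, and 6 and 3 genes passed a 2-fold change. Both classes of an arm come from the same culture and library, so p-values here measure little beyond counting error. Without the 4 mM arm of run 3 the test called 87 genes higher and 56 lower, without its 0 mM arm 96 and 42, and without the 4 mM arm of run 2 65 lower. DESeq2 gave an adjusted p to 5505 genes and called 39 higher and 16 lower.

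The ATF4 targets that the score did not use rose as a group. Their list, like the score, was chosen with earlier results of these data known. Of the 35 in a list of known targets, 27 were higher in high-score cells and 0 lower, beside 1.44% and 0.927% of all genes, with a median log2 difference of 0.41 against -0.01 over all genes tested. At an unadjusted p under 0.05, 30 were higher and 0 lower, and DESeq2 called 15 higher and 0 lower. Leaving out the 6-cell arm, run 2 at 0 mM, again gave 27 higher. The summed level of the list was 3123, 3190, 2905 and 3088 CPM in the high-score cells of the 4 mM and 0 mM arms of run 2 and run 3, against 2512, 2227, 2268 and 2181 in the other cells.

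Transcription factors and secreted factors of the stress response led the list. GDF15, a secreted stress cytokine, had 40.8, 76.9, 33.0 and 59.8 CPM in high-score cells, against 18.3, 22.9, 12.5 and 17.6 in the others. Its log2 difference was 1.45 ± 0.079 (adjusted p = 2.96e-70), the largest that this comparison called by the naming rule. ATF5, a factor translated in the same way as ATF4, had 75.03, 104, 61.5 and 91.0, against 38.1, 38.5, 32.0 and 36.2, and differed by 1.07 ± 0.062. ATF3, a repressor of the same family, had 55.3, 43.9, 53.8 and 51.6, against 25.2, 24.9, 29.5 and 23.8, a difference of 0.99 ± 0.070. CEBPB and CEBPG, which pair with ATF4 on DNA, differed by 0.82 ± 0.063 and 0.45 ± 0.056, though CEBPB was lower in the high-score cells of the 6-cell arm (22.0 against 36.2 CPM). NUPR1, a small chromatin-associated stress protein, differed by 0.81 ± 0.069, and STC2, a secreted glycoprotein, by 0.74 ± 0.049.

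All 3 enzymes of serine synthesis were higher in high-score cells. PSAT1, the transaminase that turns glutamate into α-ketoglutarate as it makes phosphoserine, had 273, 324, 222 and 222 CPM in high-score cells, against 223, 147, 156 and 144. Its log2 difference was 0.49 ± 0.043. PSPH, the phosphatase of the last step, differed by 0.60 ± 0.059 but was lower in the 6-cell arm, and PHGDH, of the first step, by 0.27 ± 0.043. MTHFD2 and SHMT2, the mitochondrial one-carbon enzymes, differed by 0.38 ± 0.040 and 0.22 ± 0.052. Of the 15 serine and one-carbon genes measured, 5 were higher and 1 was lower.

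Amino acid transporters and tRNA synthetases were also among the genes called higher. SLC3A2 and SLC7A5, the chains of the LAT1 exchanger, differed by 0.29 ± 0.041 and 0.37 ± 0.052, and SLC7A1, SLC1A5 and SLC38A2 by 0.45, 0.30 and 0.30. Of 20 aminoacyl tRNA synthetases, 11 were higher and 0 lower, with a median of 0.16. The unadjusted counts were 12 higher and 1 lower, and DESeq2 called 2 higher. SARS, the seryl enzyme, had 163, 170, 148 and 159 CPM in high-score cells, against 141, 118, 120 and 118, and differed by 0.31 ± 0.046. CARS, IARS and GARS differed by 0.36, 0.25 and 0.19. The 8 targets that did not pass were PPP1R15A, PYCR1, ALDH1L2, CBS, EIF4EBP1, SLC1A4, KLHL24 and ALDH18A1, with log2 differences from -0.03 to 0.45.

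**Figure D3:**
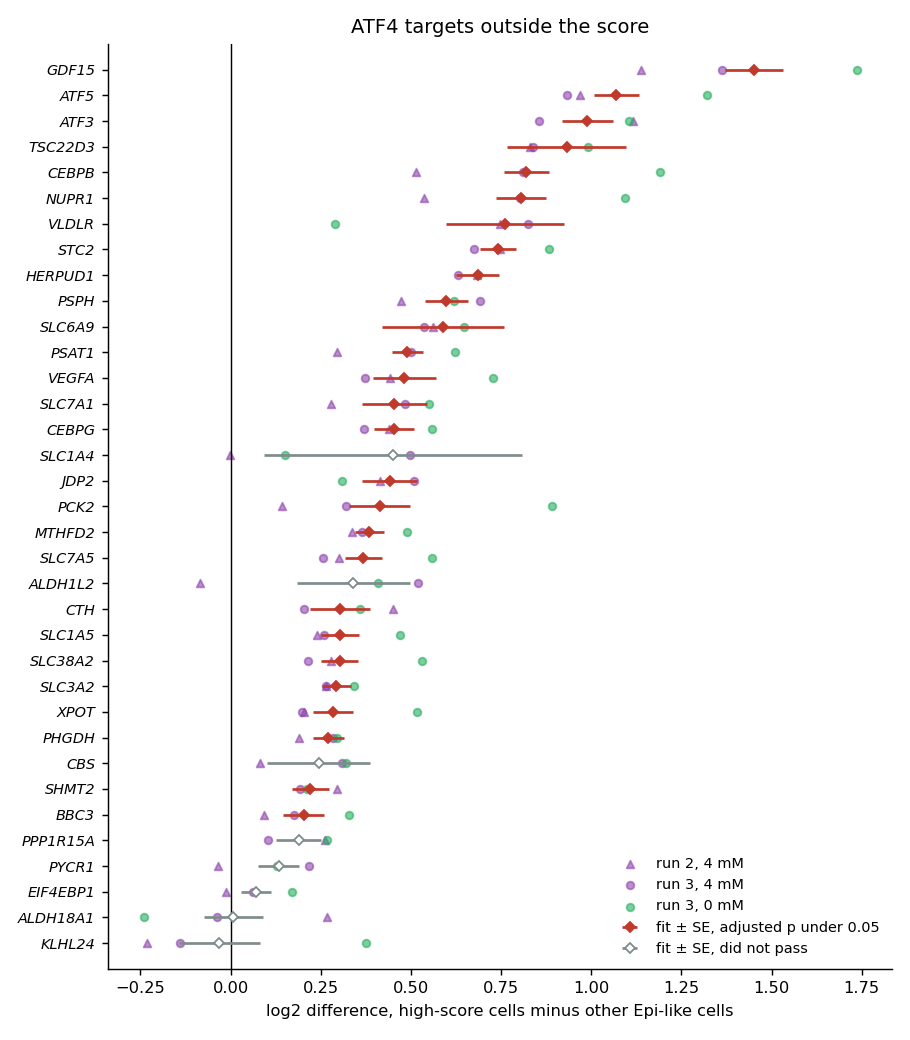
Log2 difference between high-score cells and other Epi-like cells for the 35 ATF4 targets outside the score. Diamonds are the edgeR fit over 4 arms with its SE, red where the adjusted p was under 0.05, and small points are the single arms (the 6-cell arm, run 2 at 0 mM, is in the fit but not drawn). GDF15 leads at 1.45, and 27 targets passed the test.

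The genes upstream of ATF4 changed little at the RNA level. ATF4 itself had 172, 170, 198 and 192 CPM in high-score cells, against 153, 136, 168 and 161, a log2 difference of 0.22 ± 0.045 (adjusted p = 0.000118). Without the 4 mM arm of run 3 its adjusted p was 0.083. PPP1R15B, which helps to remove phosphate from eIF2, differed by 0.26 ± 0.077 (adjusted p = 0.0391). The other 11 of the 13 genes of this list, among them the kinases EIF2AK1 to EIF2AK4 and the sensors OMA1, DELE1 and GCN1, did not pass. ATF4 is controlled by translation and eIF2 by phosphorylation, and neither was measured.

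The other branches of the unfolded protein response did not rise as a group. Of 23 targets of ATF6 and XBP1, 2 were higher, HSPA5 (BiP, the main chaperone of the endoplasmic reticulum) by 0.29 ± 0.040 and XBP1 by 0.22 ± 0.044, and 0 were lower. At an unadjusted p under 0.05 the counts were 2 higher and 7 lower, DESeq2 called 0, and the median was -0.01. HERPUD1, an ATF4 target that also answers to unfolded protein, had 70.5, 132, 76.8 and 73.8 CPM in high-score cells, against 43.7, 46.8, 49.4 and 45.7. It differed by 0.68 ± 0.060. None of 13 heat shock genes was called higher, and 3 fell, HSPE1, HSPA8 and HSP90AA1, by 0.16, 0.13 and 0.12 on the log2 scale. Unadjusted, 0 were higher and 8 lower (p under 0.05), and DESeq2 called 0.

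Signs of arrest and death were mixed. CDKN1A, the p21 inhibitor of cyclin kinases and a target of p53, had 31.4, 16.5, 18.5 and 30.0 CPM in high-score cells, against 18.7, 15.9, 13.9 and 16.0, and differed by 0.63 ± 0.093 (adjusted p = 7.82e-09). In the 6-cell arm it was level with the other cells. Of 19 p53 targets 4 were higher, with BBC3, TNFRSF10B and AEN besides CDKN1A, and 2 without that arm. BBC3 and TNFRSF10B are also known targets of ATF4 or CHOP. Of 14 apoptosis genes 4 were higher and 0 lower. PMAIP1 and HRK, 2 proteins that block survival factors of the BCL2 family, differed by 0.37 ± 0.048 and 0.38 ± 0.066.

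Cell cycle genes divided by phase. Of 43 genes of S phase 16 were lower and 0 higher (unadjusted 30 lower and 0 higher; DESeq2 4 lower), with a median of -0.17. Their summed level was 3218, 2746, 3233 and 2746 CPM in high-score cells, against 3526, 3138, 3519 and 3257. CDC6, the helicase loader, differed by -0.41 ± 0.063, TIPIN by -0.44 ± 0.078, UHRF1, which guides maintenance DNA methylation, by -0.37 ± 0.086. CCNE1, the cyclin of S phase entry, from a list of G1 regulators, differed by -0.31 ± 0.063. Of 54 genes of G2/M 14 were higher and 0 lower (unadjusted 28 and 0; DESeq2 1 higher), but this came from run 3. The median G2/M difference was 0.20 and 0.15 in the 4 mM and 0 mM arms of run 3 and -0.02 and -0.07 in those of run 2. UBE2C, a ubiquitin enzyme of mitotic exit, differed by 0.33 ± 0.042 and TOP2A by 0.30 ± 0.047.

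Mitochondrial transcripts were lower. Of 13 genes encoded in mitochondrial DNA, 7 fell and 0 rose (unadjusted 10 and 0; DESeq2 2 lower), with a median of -0.12. MT-CYB had 3372, 3147, 3195 and 2576 CPM in high-score cells, against 3607, 3631, 3538 and 3303, and differed by -0.22 ± 0.036. The median mitochondrial share of a cell was 4.06, 4.24, 3.94 and 3.41% in high-score cells, against 4.37, 4.50, 4.20 and 4.05%, lower in high-score cells of every arm. Nuclear-retained RNAs moved the other way, MALAT1 by 0.28 ± 0.036, NEAT1 by 0.24 ± 0.041 and MEG3 by 0.17 ± 0.038. Median depth was 29496 and 28254.5 UMIs in the high-score cells of run 2, against 30142 and 28952.5, and 15494 and 15320 in those of run 3, against 15511.5 and 15685. Immediate early genes, which dissociation can induce, were higher too. Their summed level was 723, 1076, 634 and 734 CPM in high-score cells, against 638, 690, 568 and 616, and 4 of 17 were higher and 1 lower (unadjusted 6 and 2; DESeq2 1 higher). EGR1 differed by 0.74 ± 0.16, ATF3 by 0.99, JUND by 0.20 and IER2 by 0.15, and MYC, named after its values were seen, by -0.53. The difference of EGR1 was 1.12 and 2.29 in the 4 mM and 0 mM arms of run 2. In those of run 3 it was 0.13 and 0.39, at 3.46 and 6.88 CPM in high-score cells. ATF3 is on the ATF4 list too. The parts of RNA quality and handling in these differences and in that of the ATF4 targets were not tested.

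Few genes of other metabolic lists were called. No gene of 19 of glycolysis (unadjusted 1 higher and 2 lower) or of 24 of cholesterol synthesis (unadjusted 0 and 1) passed in edgeR, nor in DESeq2. Over all genes 1.44% were called higher and 0.927% lower, so 0 calls in lists this short is near that share. The median log2 differences of these 2 lists were 0.0007 and -0.02, against -0.01 over all genes tested. Of 17 hypoxia genes only VEGFA was called, by 0.48 ± 0.088, and it is on the ATF4 list too. Of 16 NRF2 targets only TXNRD1 was called. Among 21 genes of α-ketoglutarate and glutamate metabolism, GPT2, the mitochondrial alanine transaminase that makes α-ketoglutarate from glutamate, was higher. It had 96.1, 71.4, 85.7 and 93.5 CPM in high-score cells, against 64.8, 63.9, 67.1 and 64.9, a difference of 0.45 ± 0.054 (adjusted p = 1.35e-13). Of the 21 genes, 1 was called higher and 1 lower.

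Genes of cell identity were examined next. No gene of 10 of core pluripotency passed (unadjusted 0 higher and 3 lower; DESeq2 0). POU5F1 had 916, 840, 893 and 868 CPM in high-score cells, against 954, 861, 880 and 889. Of 28 naive genes, ALPG was higher by 0.26 ± 0.039 and DPPA3 differed by -0.15 ± 0.044, and DESeq2 called 1. CD24, the 1 gene called of 26 of the post-implantation epiblast, differed by -0.29 ± 0.044 (adjusted p = 1.96e-08). LEFTY1, an inhibitor of Nodal signalling and the 1 gene called of 15 of that pathway, differed by 0.41 ± 0.065 (adjusted p = 1.38e-07), but was lower in the high-score cells of the 6-cell arm. No marker of primitive endoderm, amnion or fibroblasts passed, but only 5 of 14, 2 of 7 and 2 of 7 were abundant enough to be tested. Of 16 trophectoderm (TE) markers tested 1 was called, GRHL1, lower. Their summed level was 167, 258, 183 and 199 CPM in high-score cells, against 173, 190, 187 and 202. KRT8 and KRT18, which the gate used to set aside TE-like cells, differed by -0.39 ± 0.062 and -0.33 ± 0.044. The part of this gate in their difference was not tested.

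**Figure D4:**
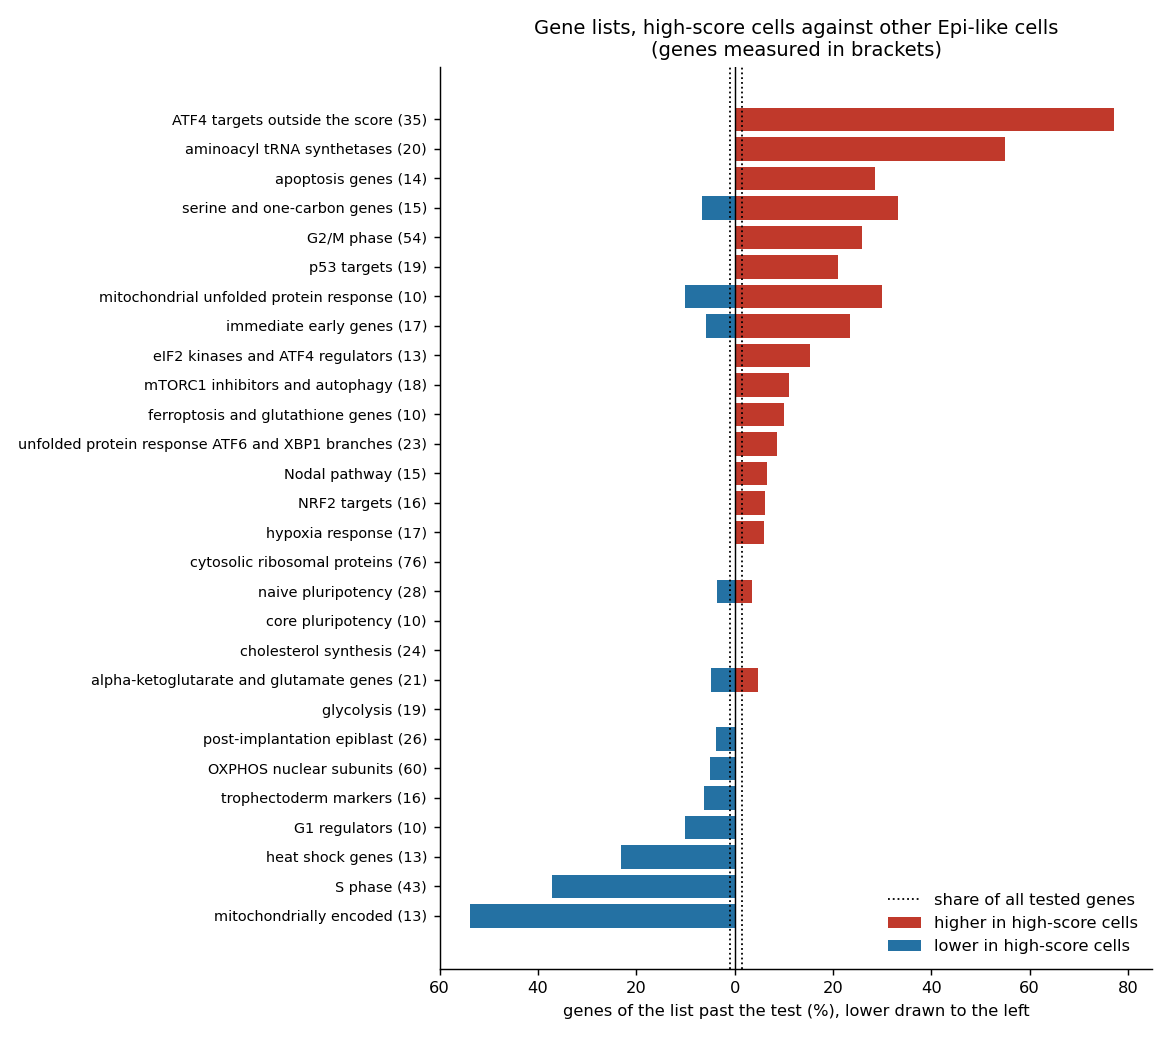
For each gene list with 10 or more genes measured, the percentage called higher (red, right) and lower (blue, left) in high-score cells against other Epi-like cells. Dotted lines mark the share of all tested genes called, 1.44% higher and 0.927% lower, and the ATF4 targets outside the score extend farthest, at 27 of 35.

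Of the remaining genes that the naming rule took up, AKNA, a microtubule and centrosome protein, rose by 0.86 ± 0.11, S100P, a calcium-binding protein, by 0.77 ± 0.078, and IFRD1, a transcriptional coregulator, by 0.51 ± 0.068. UHRF1BP1 and the noncoding LINC00662 rose by 0.58 and 0.47. On the other side, MIR302CHG, the host transcript of the pluripotency miR-302 cluster, had 52.7, 27.5, 29.0 and 22.5 CPM in high-score cells, against 82.6, 54.2, 46.3 and 38.4. It fell by 0.69 on the log2 scale (SE 0.071). The same sign in all 4 arms was a condition of being named here. FABP5, a fatty acid carrier, fell by 0.46 (SE 0.039). FOXD3-AS1, LINC01356, IRX2, GOLIM4, ATAD2 and CDCA7 fell by 0.35, 0.32, 0.36, 0.39, 0.34 and 0.35.

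High-score cells of the 2 doses were then compared with each other over 13882 genes, with run in the model. The fit used 8 sums, and the high-score and other cells of a culture entered it as separate sums although there were 4 cultures. Its SEs and p-values can therefore understate the spread between cultures. 134 genes were higher (0.965%) and 112 lower (0.807%) at 4 mM, and 124 and 83 of them agreed in sign between the runs. Both runs rest on a sum at 0 mM of few cells, 6 in run 2 and 199 in run 3. The sum of run 2 at 0 mM held 182106 UMIs, so the sign of a scarce gene in run 2 can rest on few molecules. SLF1 and TCF7L2, for example, had 5.49 CPM in it. Without the 4 mM arm of run 3 the test called 21 genes higher and 9 lower, without its 0 mM arm 27 and 9, and without the 4 mM arm of run 2 20 and 19. DESeq2 called 51 and 34, the fit on the 4 high-score sums alone 33 and 28, and the fit without run 5 and 4.

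Given a score past the same cutoff, 3 ATF4 targets were lower at 4 mM. The cells of both doses were selected on the sum of the 7 genes, so the makeup of the score is a description only. DDIT4 gave 52.2 and 46.6% of the 7-gene UMIs of high-score cells at 4 mM (run 2 and run 3), and 43.9 and 36.7% at 0 mM. The value of run 2 at 0 mM rests on 155 UMIs of 6 cells. The part of this selection in the differences of the targets was not tested. GDF15, at 40.8 CPM in run 2 and 33.0 in run 3 at 4 mM, had 76.9 and 59.8 at 0 mM, a log2 difference of -0.88 ± 0.14 (adjusted p = 6.15e-07). In the other Epi-like cells it was 18.3 and 12.5 at 4 mM, against 22.9 and 17.6 at 0 mM. SLC7A5 differed by -0.48 ± 0.10 and ATF5 was called lower as well. Of the 35 ATF4 targets, these 3 were lower and 0 higher, beside 0.807% and 0.965% of all genes. At an unadjusted p under 0.05, 9 were lower and 4 higher, and DESeq2 called 3 and 0. Without the 0 mM arm of run 3 the call of GDF15 was lost (adjusted p = 0.793, difference -0.73), and without its 4 mM arm the adjusted p was 0.0588.

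Some dose differences were of like sign in the other Epi-like cells and some were not. THY1, a surface glycoprotein of the post-implantation epiblast list, had 32.7 and 30.9 CPM at 4 mM and 10.98 and 7.51 at 0 mM in high-score cells, a difference of 1.96 ± 0.25, and 42.1 and 28.8 against 14.6 and 16.4 in the others. Its call was lost without the 0 mM arm of run 3 (adjusted p = 0.643), where its difference was 1.91. ALPG, an alkaline phosphatase of naive cells, had 426 and 425 at 4 mM and 1049 and 797 at 0 mM in high-score cells, a difference of -0.95 ± 0.068, and 323 and 416 against 671 and 647 in the others. NEAT1 differed by -0.94 ± 0.074. FBP1, an enzyme of gluconeogenesis, FOXD3-AS1, PGM1, ETV1, SLF1, TCF7L2 and PLOD2 were higher at 4 mM by 0.90 to 1.17. NIBAN1, SLC27A4, FOS, AKNA and ELF3 differed by -0.99 to -0.78. In the other Epi-like cells of run 2 and run 3 the differences were 0.52 and -0.09 for NIBAN1, 0.03 and -0.21 for SLC27A4, 0.23 and -0.41 for FOS, and -0.03 and -0.23 for AKNA. Of 19 glycolytic genes 6 were higher and 0 lower, led by LDHA (0.59 ± 0.069) and PGK1 (0.59 ± 0.075). The median difference of the list was 0.02 in run 2 and 0.28 in run 3. At an unadjusted p under 0.05, 9 were higher and 1 lower, and DESeq2 called 3 and 0.

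**Figure D5:**
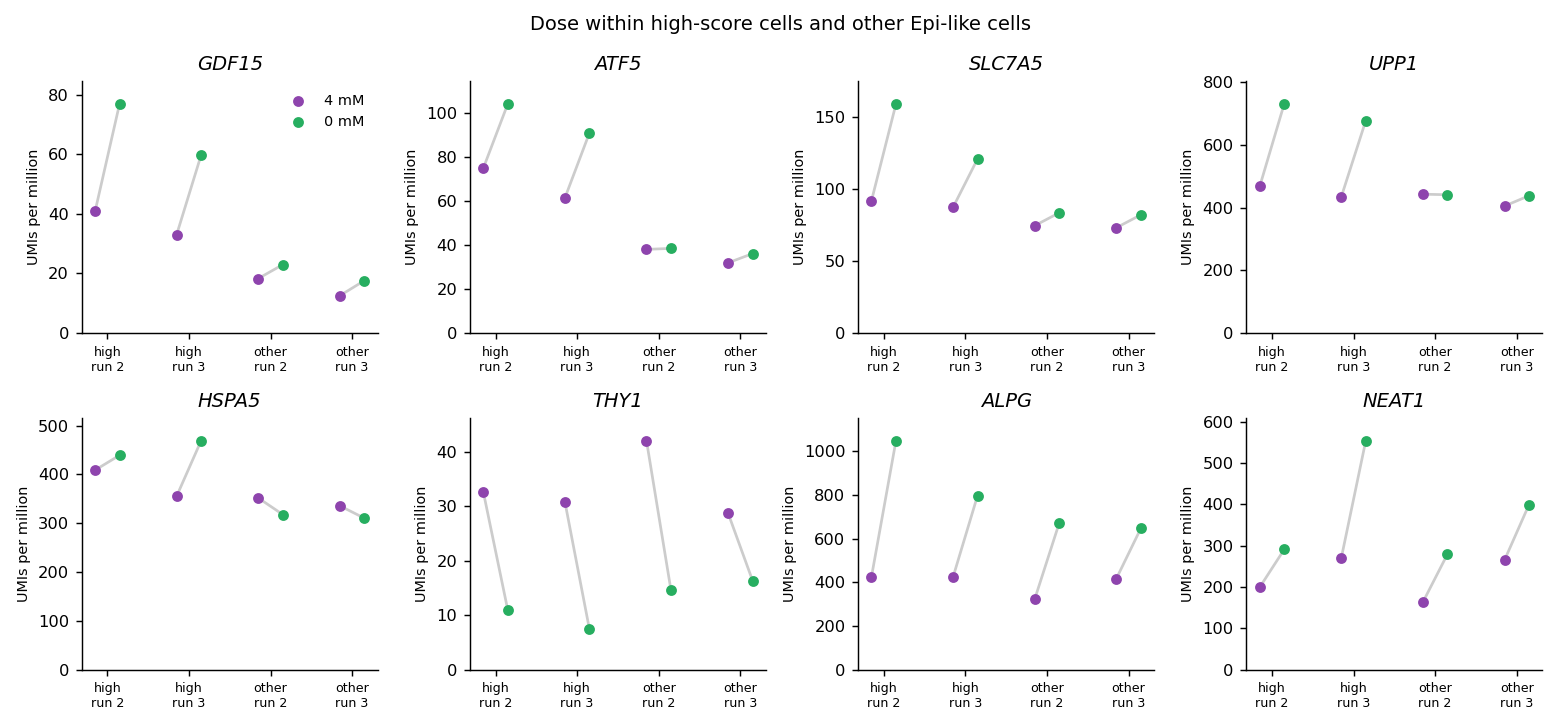
Level (CPM of the summed cells) of 8 genes in high-score cells ("high") and other Epi-like cells ("other") of each run, 4 mM in purple on the left of each pair and 0 mM in green. GDF15 is 40.8 and 33.0 at 4 mM against 76.9 and 59.8 at 0 mM in high-score cells, and 18.3 and 12.5 against 22.9 and 17.6 in the others.

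Whether the difference between high-score and other cells depended on dose was tested with a class-by-dose term. Both classes of an arm share a culture and a library, so its p-values too measure little beyond counting error. It called 5 of 13882 genes (0.036%), all with a smaller difference at 4 mM, and 0 with a larger one. At an unadjusted p under 0.05, 345 were larger and 339 smaller, and DESeq2 called 0 in either direction. With 1 cutoff per run, high-score cells were the top 13.0 and 13.9% of Epi-like cells at 4 mM (run 2 and run 3). At 0 mM they were the top 1.67 and 5.00%. The term was not fitted with a cutoff within each arm, and the part of this unequal selection in it was not tested. HSPA5, the chaperone BiP, had 409 and 356 CPM in high-score cells at 4 mM (run 2 and run 3) and 439 and 469 at 0 mM, while the other cells had 352 and 336 at 4 mM and 318 and 310 at 0 mM. Its class-by-dose term was -0.42 ± 0.078 (adjusted p = 0.000237). UPP1, uridine phosphorylase, had 467 and 434 in high-score cells at 4 mM and 730 and 677 at 0 mM, and 443 and 405 against 441 and 438 in the others, with a term of -0.54 ± 0.075 (adjusted p = 5.28e-09). Both terms kept an adjusted p under 0.05 without the 0 mM arm of run 2 and lost it without any of the other 3 arms. In those 3 fits the term of UPP1 stayed between -0.54 and -0.50, with adjusted p from 0.213 to 1. The term of HSPA5 was -0.43 without the 4 mM arm of run 2, -0.31 without the 4 mM arm of run 3 and -0.21 without its 0 mM arm, with adjusted p from 0.885 to 1.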

How the data were processed

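The deposited matrices hold raw UMI counts per gene and barcode, made by the authors with bcl2fastq 2.20.0.422 and Cell Ranger 6.1.2 on GRCh38. Raw counts were used as deposited; Seurat 4.3.0, named in the submitters' processing notes, was not used. Barcodes were given to a culture where 1 hashtag held 80% or more of hashtag UMIs (hashtag counts are in the same matrices), which is also the only step against doublets. Cells had a mitochondrial share of 15% or less and at least 7000 UMIs (run 2) or 5000 (run 3). Cells were Epi-like where the UMIs of KRT8, KRT18, GATA3 and CLDN4 did not exceed those of POU5F1, DPPA5, DPPA4, L1TD1 and TDGF1.

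UMIs were summed per arm and class (8 sums) and tested with edgeR 4.0.16 (R 4.3.3; TMM, filterByExpr, quasi-likelihood F test, Benjamini-Hochberg over all genes). The 7 score genes were left out of every count and call. Models had arm and class, run (the replicate block, since both doses of a run shared an experiment and a library) and class by dose, or arm and class with their class-by-dose term. Lists are described by counts and medians. Single genes were named by size: the 14 largest differences each way by class and 8 each way by dose, past the test, with a mean of 20 or more CPM and the same sign in every arm; up to 6 from the class-by-dose term; up to 4 called genes per list; and any gene of the ATF4 target and regulator lists. POU5F1, a gate gene, was added after its values were seen. The score, its members and all lists were chosen with earlier results of these data known. Alternatives were DESeq2 1.42.0, RLE scaling, no filter, each arm left out, cutoffs of 5 and 20%, DDIT4 left out, cells thinned to equal depth, stricter hashtag (90%) and mitochondrial (10%) filters, a log score, a cutoff within each arm, depth-matched other cells, mitochondrial genes left out, the 4 high-score sums alone and no run term. Run 3 alone, and list counts without the 6-cell arm, were added after seeing the data. Tests were checked on simulated counts. Gene positions are from GENCODE on GRCh38. Values of some genes called in the lists are not reported here.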

Additional observations from a re-analysis of the deposited data

Results flagged for a closer look

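For 5 genes the difference between high-score and other Epi-like cells differed between doses in the edgeR test of the class-by-dose term. High-score cells were a smaller share of Epi-like cells at 0 mM, and the part of that in the terms was not tested. UPP1 (-0.54 on the log2 scale) was higher in high-score cells at 0 mM than at 4 mM in both runs. HSPA5 (-0.42) was higher at 0 mM in run 3, at 469 against 356 CPM. In run 2 it had 439 CPM in the 6 cells at 0 mM and 409 at 4 mM, a small gap. MAP1B, a microtubule-associated protein, had a term of -0.86, with 91.3 and 64.9 CPM in high-score cells at 4 mM (run 2 and run 3) and 43.9 and 119 at 0 mM, so the 2 runs disagreed. CCNA1, a cyclin of the germ line, had a term of -2.17, with 3.04 and 3.63 CPM in high-score cells at 4 mM and 5.49 and 30.0 at 0 mM, so its size rests on the 0 mM arm of run 3. ANXA1, a phospholipid-binding protein, had a term of -2.08, with 3.04 and 2.16 at 4 mM and 0 and 9.07 at 0 mM, and the runs disagreed. With 1 arm left out, the call of CCNA1 was lost without the 0 mM arm of run 3, where its term was -0.11, and those of the other 4 genes without any arm but the 0 mM arm of run 2.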

How the results depend on the processing

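Outside the class-by-dose term, the counts of genes moved with the setting more than single genes did. The 5 genes of that term lost their calls or changed sign in some settings. Between high-score and other cells (190 higher, 122 lower), DESeq2 called 39 and 16, the 5% cutoff 82 and 21, thinned cells 112 and 58, depth-matched other cells 90 and 39, no filter 130 and 175; the score without DDIT4 called 282 lower, a cutoff within each arm 78 lower, run 3 alone 81 lower. Leaving out 1 arm gave 87 to 179 higher and 42 to 109 lower. By dose in high-score cells (134 higher, 112 lower), DESeq2 called 51 and 34, high-score sums alone 33 and 28, without run as the replicate block 5 and 4, the 5% cutoff 41 and 32, the 20% cutoff 331 and 199, the score without DDIT4 246 higher, no filter 72 lower, and leaving out 1 arm 20 to 128 higher and 9 to 91 lower. The class-by-dose term (5) gave 0 in DESeq2, 15 with no filter and 1 to 12 with 1 arm left out, and with 1 arm left out the terms of MAP1B (-0.93 to 0.64) and ANXA1 (-2.26 to 9.29) changed sign, both without the 0 mM arm of run 3. The ratio of shares (7.81 in run 2, 2.78 in run 3) was 24.0 and 3.39 at the 5% cutoff, 2.37 and 1.65 without DDIT4, 2.91 and 2.38 after thinning, and 2.37 in run 3 at the 20% cutoff. ATF4 targets called higher numbered 20 to 30 of 35 in the other settings and 15 in DESeq2. Each score gene left out of its own selection stayed higher with every arm removed. The causes were not tested.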

Other observations

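The cutoff of each run was also applied to cells outside the Epi-like blastoid cells, as a description with no test. Among 40 h aggregates of run 2, collected at the end of the dm-αKG exposure, 283 of 1098 cells at 4 mM (25.8%, exact 95% interval 23.2 to 28.5%) and 96 of 1017 cells at 0 mM (9.44%, 7.71 to 11.4%) passed it. DDIT4 had 312 CPM in the 4 mM aggregates and 181 at 0 mM, DDIT3 75.9 and 48.8, and CHAC1 16.4 and 16.6. Among TE gate cells of blastoids, 3 of 56 at 4 mM (5.36%, 1.12 to 14.9%) and 0 of 18 at 0 mM passed in run 2, and 15 of 175 (8.57%, 4.88 to 13.7%) and 11 of 208 (5.29%, 2.67 to 9.27%) in run 3. An interval for 0 of 18 cells reaches 18.5%, so a difference was not detectable there.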
